A study of Mus musculus with 2 samples.

Results

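Endothelial cells of the bone and marrow were 55 of the 9573 cells kept from the single-cell RNA-seq data, or 0.575% (exact 95% interval 0.433% to 0.747%). A cell was a member if it had a UMI (unique molecular identifier, a tag that marks a captured transcript) of at least 2 of the genes Cdh5, Flt1, Ptprb, Kdr, Emcn and Plvap, and if these 6 genes together made up at least 1000 of every 1000000 of its UMIs (CPM). The 6 gate genes therefore describe how the members were chosen and are no result. The cells came from the femurs and tibias of 3 male INK-ATTAC mice, 24 months old and untreated, which carry an inducible caspase 8 under the p16Ink4a promoter that AP20187 would activate. Digested marrow and bone were combined, treated to lyse red cells, depleted of cells with CD5, CD45R, CD11b, Gr-1, 7-4 or Ter-119, and sorted as CD45-SYTOX- cells, which were pooled and measured with a droplet 3′ assay. The labels name 2 samples, replicates 1 and 2. All 55 members were captured in both replicates, as were 10928 of the 11056 barcodes, so the replicates were repeat reads of the same cells and were summed as 1 pooled sample. UMI numbers given here are such sums, in which a molecule read in both replicates may be counted in each, and intervals were computed on the mean of the replicates. No test between animals or conditions was possible, and every 95% interval given here covers counting error only.

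Endothelial cells line the blood vessels. In marrow, arterioles lead into arterial capillaries and these into wide, leaky sinusoids, through which blood cells leave the tissue. Endothelial cells take up fatty acids from the blood, lay down a basement membrane, and hold blood stem cells in place through factors such as CXCL12 and KIT ligand. Arterial and sinusoidal cells differ in known genes: Ly6a (the surface protein Sca-1), Sox17, Efnb2 and Dll4 mark the arterial side, while the scavenger receptors Stab1 and Stab2 and the VEGF receptor Flt4 mark sinusoids.

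The members were small libraries, with a median of 3503 UMIs (1007 to 14171) and 1292 genes per cell, and together they held 110251 UMIs in replicate 1 and 113744 in replicate 2. The median was 4978 UMIs in the 1941 LEPR stromal cells, the perivascular cells of marrow and the non-blood class with most cells here, and 31315 UMIs in the 6375 erythroid cells. The erythroid class held 91.1% of all UMIs, so a comparison with all 9518 other cells is largely one with erythroid cells, and levels or counts against LEPR stromal cells are given beside most results. The stromal cells were themselves chosen by Lepr, Cxcl12, Adipoq and Ebf3 (at least 2 of them, together at least 5000 CPM), so the levels of these 4 genes in that class follow from the choice. Of the 55 members, 6 had 2 of the gate genes, 9 had 3, 20 had 4, 10 had 5 and 10 had 6, and the median of their summed level was 4948 CPM. The 3 members nearest to the limit stood at 1256, 1385 and 1393 CPM, and the 3 nearest cells outside it at 811, 764 and 742 CPM. Under the limit lay 20 of the 75 cells with at least 2 gate genes, most of them with many more UMIs than the members, as the plot of the gate shows. By a limit of 3 counts, 0 UMIs over the members allows a level of up to 26.8 CPM. In a cell of median size 1 UMI is 285 CPM, so a member without a UMI of a gene cannot be called negative for it.

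**Figure D1:**
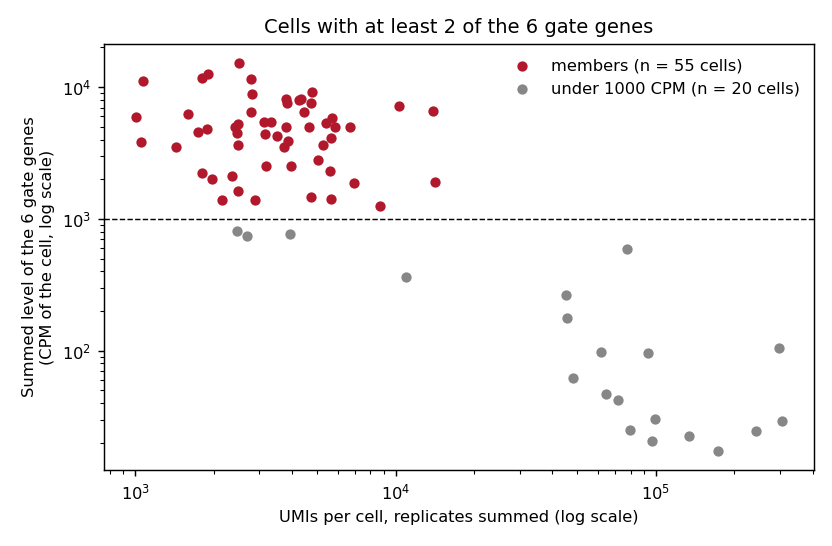
Summed level of the 6 gate genes in CPM of the cell against UMIs per cell, both on log scales, for the 75 kept cells with at least 2 of the genes; each point is a cell and the dashed line marks 1000 CPM. The 55 members reach 15139 CPM, while 20 cells lie under the line.

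The members carried the wider endothelial gene set, which the gate did not use. All 24 endothelial markers outside the gate had a UMI among the members, and all 24 were 4-fold or more higher than in all other cells, where 26.8% of the 10545 genes compared were higher and 6.04% lower by this rule. Against the LEPR stromal cells 23 of 24 were 4-fold or more higher, where 7.92% of 10532 genes were higher and 7.41% lower. These shares over all genes are the background for every count of listed genes that follows. The median log2 ratio of the 24 was 8.94 against all other cells and 7.83 against stromal cells, beside 0.60 and 0.01 over all genes compared. The exception against stromal cells was Adgrf5, an adhesion receptor, with 732 CPM in members and 286 CPM in stromal cells (log2 ratio 1.36, 95% interval 1.02 to 1.68).

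Among single cells, 54 of 55 members had at least 3 of the 24 markers, 44 had at least 10, the median was 14, and the range ran from 2 to 24. Pecam1, the junction protein CD31, was found in 52 of 55 members at 1116 CPM (95% interval 929 to 1330), with 1088 CPM in replicate 1 and 1143 CPM in replicate 2, against 0.764 CPM in stromal and 0.378 CPM in erythroid cells. Cldn5, the claudin of endothelial tight junctions, was found in 33 members at 826 CPM (666 to 1012), 844 CPM in replicate 1 and 809 CPM in replicate 2. Cldn5 had no UMI among 1941 stromal cells, and the lower 95% bound of the log2 ratio was 10.17. In erythroid cells, at a median depth of 31315 UMIs against 3503, a UMI was found in 0.941% of cells for Pecam1 and 0.188% for Cldn5. Megakaryocytes held Pecam1 at 57.1 CPM. Both junction genes were thus far higher in the members than in these classes, and the replicate values lay within the interval.

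Cav1, the coat protein of caveolae and a marker given with the rule but not part of the gate, stood at 1147 CPM (958 to 1364) in 37 members, with 1143 CPM in replicate 1 and 1152 CPM in replicate 2. It was at 0.0955 CPM in stromal cells (log2 ratio 13.55, 10.30 to 23.55) and at 68 CPM in the 77 fibroblast-class cells. Its partners in caveolae were also higher than in stromal cells, with Cavin1 at 509 CPM against 85.3 CPM in stromal cells and Cavin2 at 746 CPM against 28.4 CPM. Megakaryocytes held Cavin2 at 979 CPM, above the members. Sox18, an endothelial transcription factor, was found in 35 members at 531 CPM, 544 CPM in replicate 1 and 519 CPM in replicate 2, and in 1 of 1941 stromal and 5 of 6375 erythroid cells. Its relatives Sox17 and Sox7 were at 272 CPM and 143 CPM, with 0 UMIs of either in stromal cells. Egfl7, a secreted angiogenic factor, was found in 50 members at 1156 CPM, against 1.62 CPM in stromal cells, but erythroid cells had it too, in 22.5% of cells at 18 CPM. All 3 SOX factors, Cav1 and Pecam1 thus separated the members from both large classes, while Egfl7 was also present at a low level in erythroid cells.

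**Figure D2:**
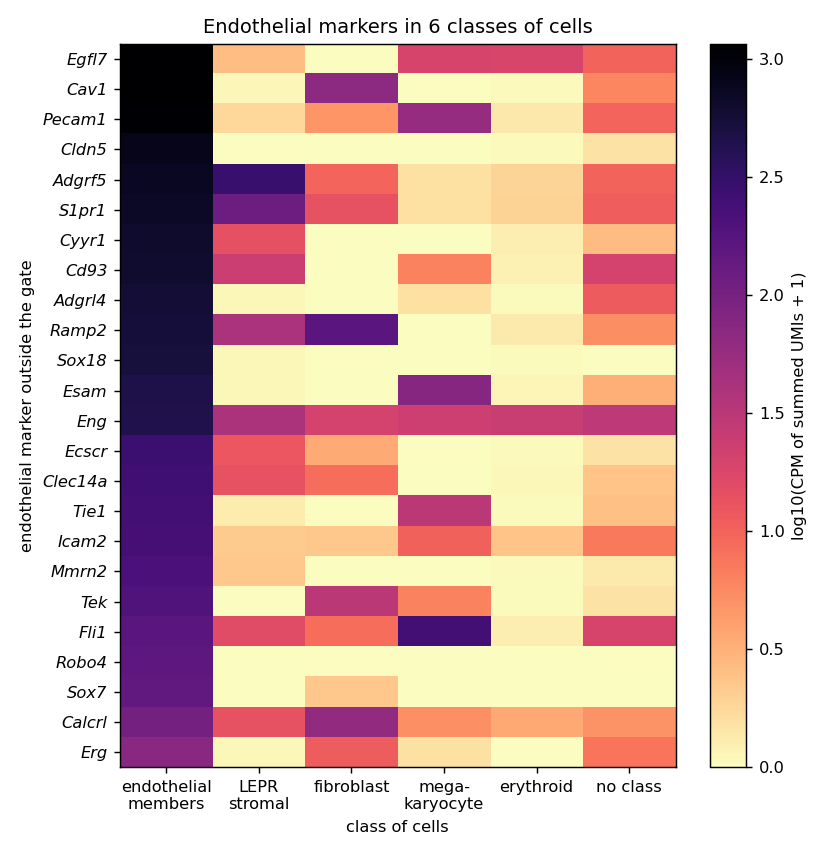
Level of the 24 endothelial markers outside the gate, as log10 of the CPM of summed UMIs plus 1, in the members and in the 5 other classes of cells; darker is higher. The members' column is dark for all 24 genes, while Adgrf5 is also dark in LEPR stromal cells and Fli1 in megakaryocytes.

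The ETS factors Erg and Fli1 are known to hold many endothelial genes active through sites with the core GGAA. The 250 bases before the start of the gene were taken from RefSeq (GRCm38.p6) for 13 of the 24 markers that could be matched, and searched on both strands for AGGAAG or CGGAAG, which differ in their first letter. These letters were in 52.6% of the 19 promoters of these genes and in 39.2% of 32851 promoters in all. For the leading 25 genes described further on the share was 27.8% of 18 promoters. The SOX letters ACAAAG or ACAATG were in 26.3% of the markers' promoters and 25.2% of all. The promoters of 4 genes high in the members are printed, chosen to show 2, 1, 0 and 0 matches among windows without an annotated exon, 5′ to 3′ along the gene, with the ETS letters in capitals on either strand. They are Eng, the TGF-beta co-receptor endoglin (chr2:32646345-32646594, plus strand), Adgrl4, an adhesion receptor of vessels (chr3:151437632-151437881, plus strand), Cldn5 (chr16:18776597-18776846, plus strand) and Ly6c1, a lipid-anchored surface protein (chr15:75048838-75049087, minus strand). A match is a description of the letters and not a bound site.
Eng: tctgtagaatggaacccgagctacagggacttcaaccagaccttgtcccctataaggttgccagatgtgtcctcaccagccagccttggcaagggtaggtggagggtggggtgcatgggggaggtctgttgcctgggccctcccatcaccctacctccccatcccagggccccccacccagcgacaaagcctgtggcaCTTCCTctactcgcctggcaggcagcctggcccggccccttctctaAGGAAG
Adgrl4: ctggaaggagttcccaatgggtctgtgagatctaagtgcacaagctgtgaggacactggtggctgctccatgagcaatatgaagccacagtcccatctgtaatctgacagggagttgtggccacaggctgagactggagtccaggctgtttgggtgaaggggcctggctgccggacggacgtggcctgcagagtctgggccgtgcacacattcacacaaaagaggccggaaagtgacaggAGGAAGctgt
Cldn5: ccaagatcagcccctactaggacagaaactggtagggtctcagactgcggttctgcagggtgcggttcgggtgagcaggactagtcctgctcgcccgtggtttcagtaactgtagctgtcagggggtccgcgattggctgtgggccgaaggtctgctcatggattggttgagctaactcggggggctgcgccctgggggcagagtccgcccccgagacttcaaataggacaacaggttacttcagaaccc
Ly6c1: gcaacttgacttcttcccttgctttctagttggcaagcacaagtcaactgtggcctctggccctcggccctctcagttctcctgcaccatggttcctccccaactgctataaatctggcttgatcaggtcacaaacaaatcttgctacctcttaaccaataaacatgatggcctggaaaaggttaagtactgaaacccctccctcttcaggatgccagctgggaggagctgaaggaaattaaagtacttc

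Eng, whose 2 matches lie 52 and 6 bases before its start, was found in 37 members at 433 CPM against 39.7 CPM in stromal cells, but also in 35.7% of erythroid cells at 23.6 CPM. Adgrl4, with its match 10 bases before the start, was in 37 members at 571 CPM and in 1 stromal cell. Cldn5 had no match. The printed start of Ly6c1 had none either, but the 250 bases before another start of that gene (chr15:75048664-75048913, minus strand), which overlap an annotated exon and are not printed, held 3, at 126, 38 and 34 bases before that start.

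The 25 genes with the highest ratio of members to all other cells, among genes with at least 100 UMIs in the members and found in at least 25% of them, were led by Sox18, Gpihbp1, Cldn5, Cav1, Fabp4, Adgrl4, Pecam1 and Ly6c1. Their log2 ratios ran from 6.17 to 13.33. Further down the order came genes of the membrane, cytoskeleton and matrix, among them Clic5 (459.8 CPM), Sparcl1 (1161 CPM), Slc9a3r2 (737 CPM), Tm4sf1 (1402 CPM) and Fbln2 (455 CPM). Fbln2, the matrix protein fibulin 2, was at 0 UMIs in stromal cells, with a lower 95% bound of the log2 ratio at 9.28, yet at 454 CPM in fibroblast-class cells. Among the 10 genes with the lowest ratio to stromal cells were Dcn, Sfrp4, Agt, Cxcl14, Kng1, S1pr3, Adipoq, Spp1 and Prrx1. Dcn, the matrix proteoglycan decorin, had 1 UMI in the members against 698 CPM in stromal cells (log2 ratio -7.29, -17.28 to -4.06), and Cxcl14, a chemokine, had 5 UMIs against 2014 CPM. These genes were picked for their low ratio, and other matrix and secreted genes described further on, such as Sparc and Igfbp7, were close to the stromal level.

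Genes of fatty acid uptake were prominent. Capillary endothelium captures lipoproteins through GPIHBP1, which carries lipoprotein lipase to the vessel surface, takes the released fatty acids up through CD36, and moves them through the cell with the fatty acid binding proteins FABP4 and FABP5. Of the 8 genes of this list, 5 were 4-fold or more higher than in all other cells, beside 26.8% of all genes, and 6 were higher and 1 lower than in stromal cells, beside 7.92% and 7.41%. Fabp4 was found in 47 of 55 members at 9487 CPM (8925 to 10075), with 9714 CPM in replicate 1 and 9266 CPM in replicate 2. It was at 72.8 CPM in stromal cells, 130.4-fold lower (log2 ratio 7.03, 6.86 to 7.20), and at 0.818 CPM in erythroid cells, with a UMI in 0.627% of these. Per member it ranged from 0 to 36099 CPM around a median of 6254 CPM, and 5 cells held 35.3% of its UMIs. Nearly all members thus had Fabp4, at levels far above the background of other cells.

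Gpihbp1 was found in 36 members at 942 CPM (771 to 1140), 934 CPM in replicate 1 and 949.5 CPM in replicate 2, and in 1 of 1941 stromal cells (log2 ratio 12.27, 9.76 to 17.59). Cd36 was found in 37 members at 1375 CPM (1166 to 1610), 1397 and 1354 CPM in the replicates, against 2.48 CPM in stromal cells and 10.9 CPM in erythroid cells, where 17.6% of cells had a UMI. Tcf15, a transcription factor that forms a pair with Meox2 in capillary endothelium, was at 219 CPM and Meox2 at 62.5 CPM, 6.84 and 3.35 log2 units above stromal cells. Fabp5 was 3.24 log2 units above stromal cells, but its 281 CPM did not differ from the 282 CPM of all other cells, since erythroid cells held 304 CPM. Lpl, the lipase itself, went the other way, with 304 CPM in 19 members against 2698 CPM in stromal cells (log2 ratio -3.15, -3.68 to -2.67). The docking protein was thus on the endothelial side and most of the lipase RNA on the stromal side.

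Most members carried arterial genes. All 14 genes of the arterial list were 4-fold or more higher than in all other cells, and 12 of 14 than in stromal cells, where Vegfc was lower and Fbln5 was at 424 CPM against 1017 CPM. Ly6c1 was found in 44 members at 1795 CPM (1555 to 2061), 1814 CPM in replicate 1 and 1776 CPM in replicate 2, against 0.286 CPM in stromal cells and a UMI in 0.282% of erythroid cells. Ly6a was found in 42 members at 1326 CPM (1121 to 1557), 1315 and 1336 CPM in the replicates, against 16.8 CPM in stromal cells. The fibroblast class held both genes, Ly6a at 737 CPM and Ly6c1 at 426 CPM. In all, 50 of 55 members had a UMI of Ly6a or Ly6c1 and 36 had both. Sca-1 and its neighbour were therefore a common feature of these cells.

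The 2 genes lie together on chromosome 15 of GRCm38 (GENCODE M21), Ly6a at 74994877-74998031 and Ly6c1 at 75044018-75048830, both on the minus strand and protein-coding. Ly6c2 (75108158-75111970), a close copy of Ly6c1, had 0 UMIs in the members. Reads shared by near-identical copies may be dropped or given to either copy, so the values of Ly6a, Ly6c1 and Ly6c2 are uncertain in their split. Ly6e (74955051-74959905), another family member of the same region, was at 1219 CPM against 230.0 CPM in stromal cells and 209 CPM in erythroid cells. Gpihbp1 also lies on this chromosome, at 75596628-75599481. Ly6a, Ly6c1, Ly6e and Gpihbp1 were all higher in the members than in stromal cells, by 2.41 to 12.61 log2 units.

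Sox17, which marks arterial endothelium, was found in 27 members at 272 CPM, 245 CPM in replicate 1 and 299 CPM in replicate 2. Sema3g, a secreted semaphorin of arterial cells, was in 23 members at 397 CPM, 426 and 369 CPM in the replicates, against 0.191 CPM in stromal cells. Efnb2, the ephrin of arteries, was in 22 members at 272 CPM. The connexins of mature arteries, Gja4 and Gja5, were in 11 and 6 members at 201 CPM and 53.6 CPM. A UMI of Sox17, Sema3g or Efnb2 was thus found in more members than one of either connexin.

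Sinusoidal genes were fewer and lower. Of the 7 sinusoidal genes with a ratio (Stab2 and Dnase1l3 were under 20 UMIs over all cells and were not compared), 4 were 4-fold or more higher than in all other cells, Il6st, Mrc1 (1 UMI), Flt4 and Stab1. Against stromal cells 2 were higher, Flt4 and Stab1, and 3 lower, and Il6st was at 433 CPM against 218 CPM. Stab2 was found in 2 members (7 UMIs, 31.3 CPM, 7.54 to 84.9), Stab1 in 12 (93.8 CPM, 45.9 to 170.0) and Flt4 in 6 (26.8 CPM, 5.52 to 78.3), against 0, 2.29 and 0.955 CPM in stromal cells. Lyve1 and Dnase1l3 had 0 UMIs, and Mrc1 had 1. The 3 lower genes were Vcam1, Maf and Adamts5, by 3.57, 2.72 and 3.21 log2 units. The defining sinusoidal receptors were therefore present but sparse.

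Counted per cell, 50 of 55 members (90.9%, 80% to 97%) had at least 2 of the 14 arterial genes, and 19 (34.5%, 22.2% to 48.6%) at least 2 of the 10 sinusoidal genes. Both lists were met by 16 members and neither by 2. The 36 members with both Ly6a and Ly6c1 met the arterial rule by these 2 genes alone. Fibroblast-class cells held them too, at 737 and 426 CPM. In erythroid cells, which should lack both and whose median depth was 31315 UMIs against 3503, the shares were 2.76% and 1.55%. In stromal cells 84.9% met the sinusoidal list, which holds the stromal genes Vcam1, Maf and Adamts5, and 52.9% the arterial list, with Fbln5 and Vegfc. A UMI of Stab2, Stab1 or Flt4 was found in 15 members, 12 of which also had at least 2 arterial genes. With cells thinned to 2000 UMIs of replicate 1, for which 34 shallower members were left out, the shares were 21 of 21 arterial and 6 of 21 sinusoidal. With cells thinned to 1000 UMIs, leaving 44 members, they were 38 and 5 of 44. The order of the lists was the same at each depth, but the lists differ in length and in the levels of their genes, so the shares do not give proportions of vessel types.

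**Figure D3:**
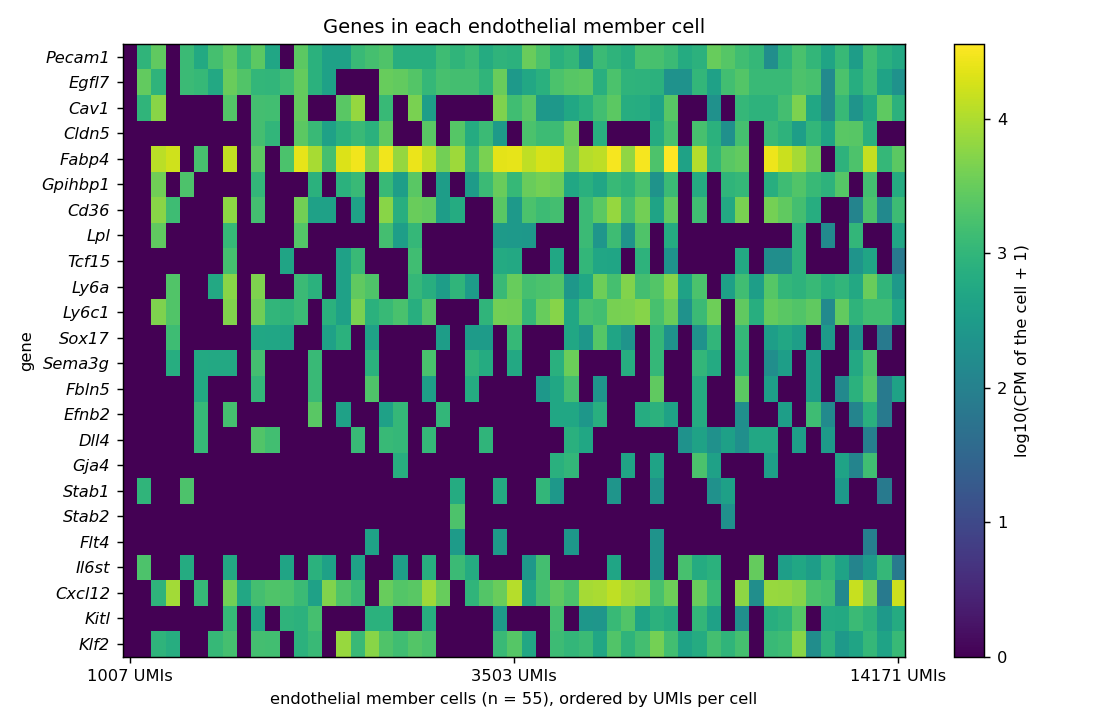
Level of 24 genes in each of the 55 members, as log10 of the cell's CPM plus 1; columns are cells ordered from 1007 to 14171 UMIs and dark cells have no UMI. Fabp4, Pecam1, Egfl7 and Cxcl12 are present in most columns, Sema3g, Fbln5 and Gja4 in some, and Stab2 in 2.

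Members with and without a UMI of Sema3g differed in other genes. This split was chosen after the values had been seen and cells are no replicates, so it is a description only. The 23 members with Sema3g (median 3804 UMIs, 4.12% mitochondrial) differed from the 32 without (median 3224 UMIs, 2.94% mitochondrial) in these genes. Fbln5, an elastic-fibre protein, was at 902 CPM against 77.1 CPM, found in 15 of 23 and 5 of 32 cells. Gja4 was at 424 CPM against 38.5 CPM (9 and 2 cells), and Gja5 was found in 6 cells with Sema3g and in 0 without. Fbln2 was at 785 CPM against 216 CPM, and Lrg1, a secreted vascular glycoprotein, at 530.3 CPM against 84.8 CPM. With cells thinned to 1000 UMIs, which left 18 and 26 cells, Fbln5 was in 9 and 1, Fbln2 in 8 and 3, Gja4 in 6 and 2 and Gja5 in 1 and 0. Other arterial genes were mixed at that depth. Podxl was in 11 and 9 cells, Dll4 in 6 and 4 and Sox17 in 4 and 3, a larger share with Sema3g. Efnb2 was in 6 and 8 cells, Unc5b in 4 and 5, Hey1 in 1 and 1, and Ly6a in 7 and 16.

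Other genes, several of them picked after their values were seen, were lower in the members with Sema3g. Rgcc was at 148 CPM with Sema3g and 694 CPM without, Aqp1, the water channel, at 159 and 964 CPM, and Col4a1 at 403 and 1133 CPM. Meox2 was found in 0 of 23 and 9 of 32 cells, C1qtnf9 in 1 and 12, Car4, a carbonic anhydrase of capillaries, in 1 and 9, and Timp4 in 1 and 8. Lpl was found in 4 of 23 and 15 of 32 cells, at 138 CPM and 424 CPM. Other genes were alike on both sides: Fabp4 was at 9143 and 9737 CPM, Cd36 at 1432 and 1334 CPM, Gpihbp1 at 817 and 1033 CPM, and Tcf15 at 202 and 231 CPM, so 4 of the 8 capillary lipid genes did not divide this way. Without the 7 members that also passed another class's gate the counts kept this order, with Fbln5 in 13 and 4 cells, Lpl in 2 and 12, C1qtnf9 in 1 and 11, and Car4 in 1 and 8.

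The 2 members with Stab2 had a median of 4194 UMIs. Both had Stab1, Pecam1, Egfl7, Cldn5, Fabp4 and Ly6a, and neither had Ly6c1, Cxcl12, Kitl, Cav1, Vim or S100a6. The cell with more Stab2, at 1913 CPM, also had Flt4 and 1276 CPM of Il6st, and 19.2% of its UMIs were mitochondrial, close to the limit of 20%. The other had 190.4 CPM of Stab2, or 1 UMI, with 5.48% mitochondrial UMIs and 3 arterial genes. Over all 11 members without Ly6c1 (median 1882 UMIs against 3855), Cav1 was in 1 cell and Klf4 in 0, against 36 and 33 of the 44 with it, while Pecam1 was in 10 of 11 and 42 of 44. Depth and the mitochondrial share, at a median of 10.5% without Ly6c1 and 2.94% with it, moved with this split, and their part in it was not tested.

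Notch genes, which direct arterial fate, included ligands and receptors. Of 10 with a ratio, 8 were 4-fold or more higher than in all other cells, and 7 were higher and 1 lower than in stromal cells. Dll4 was found in 20 members at 209.8 CPM, 227 CPM in replicate 1 and 193 CPM in replicate 2, and Jag2 in 26 at 237 CPM, against 0.0955 and 0.191 CPM in stromal cells. The receptors Notch1 (308 CPM in 29 members) and Notch4 (134 CPM in 13) were 2.84 and 4.81 log2 units above stromal cells. The target Hes1 was at 313 CPM against 427 CPM, Hey1 at 44.6 CPM against 10.9 CPM, and Hey2 had 0 UMIs. The ligands Dll4 and Jag2 were thus far higher in the members than in stromal cells, while Jag1 was at 62.5 CPM beside 56.9 CPM in stromal cells.

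In the VEGF and angiopoietin list 3 receptors were above and 3 ligands below the stromal level by 4-fold or more, among 11 genes with a ratio. Tie1 (241 CPM in 31 members), Tek, the receptor of the angiopoietins (196 CPM in 22), and Flt4 were 4-fold or more higher than in stromal cells, and Vegfa (22.3 CPM against 219.5 CPM), Vegfc (53.6 against 242 CPM) and Angpt1 (8.93 against 198 CPM, 2 UMIs in members) were lower. The co-receptors Nrp1 and Nrp2 were lower than in stromal cells by less than 4-fold, at 527 CPM against 691 CPM and at 98.2 CPM against 307 CPM. Of the tip and apelin genes, which mark sprouting vessels, Apln and Angpt2 had 0 UMIs, Aplnr was in 4 members at 26.8 CPM against 0.0955 CPM in stromal cells, and Esm1 was in 3 members at 35.7 CPM against 1081 CPM in stromal cells.

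Of 12 genes of BMP and TGF-beta signalling, 4 were 4-fold or more higher than in stromal cells and 2 lower, with a median log2 ratio of 0.56. Acvrl1, the endothelial receptor of BMP9 and BMP10, was at 125 CPM against 28.6 CPM, and its target Id1 at 589 CPM (36 members; 580.5 and 598 CPM in the replicates) against 45.5 CPM. Id3 was at 996 CPM against 764 CPM, and the receptor Bmpr2 at 196 CPM against 166 CPM. The ligands Bmp4 (31.3 against 242 CPM) and Bmp6 (62.5 against 259.6 CPM) were lower. All genes of the list but Bmp4 were 4-fold or more higher than in all other cells. For Bmp6 both calls rest on replicates that differed, with 12 UMIs (109 CPM) in replicate 1 and 2 UMIs (17.6 CPM) in replicate 2, beside 13 CPM in all other cells.

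Flow-responsive factors were high. Klf2, which laminar flow raises in endothelium, was found in 42 members at 1205 CPM (1011 to 1427), 1206 CPM in replicate 1 and 1204 CPM in replicate 2, and was 11.8-fold above the 102 CPM of stromal cells. Klf4 was in 33 members at 629 CPM, 12.1-fold above 51.9 CPM. Fibroblast-class cells held 533 CPM of Klf2 and 1037 CPM of Klf4. Immediate-early genes, which tissue digestion can also raise, differed among themselves. Fos was at 482 CPM against 507 CPM, Jun at 549 against 417 CPM, and Egr1 at 317 against 669.8 CPM. Atf3 was the third of the list above 4-fold, at 268 CPM against 7.35 CPM, in 6 members. Ier2 was at 209.8 against 72.4 CPM and Junb at 393 against 332 CPM. The fibroblast class, which was high in Klf4, was also high in Fos (2699 CPM), Egr1 (2225 CPM) and Atf3 (674 CPM). The part of digestion in these values was not tested.

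Basement membrane genes were shared with stroma. All 12 genes were 4-fold or more higher than in all other cells, but 4 of 12 were so against stromal cells: Lama5 (89.3 against 16.7 CPM), Hspg2, the proteoglycan perlecan (335 against 52 CPM), Col15a1 (49.1 against 2.29 CPM) and Col18a1 (152 against 22.2 CPM). Col4a1 was at 826 CPM in 34 members against 462 CPM, and Sparc at 1326 CPM in 46 members against 1175 CPM. The difference of Sparc was smaller than its counting error (log2 ratio 0.17, -0.07 to 0.41). Lamb1, Lamc1 and Nid1 were at 89.3, 93.8 and 71.4 CPM, below the 268, 196 and 203 CPM of stromal cells.

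Of 9 haemostasis and vessel-tone genes with a ratio, all 9 were 4-fold or more higher than in all other cells and 6 were 4-fold or more higher than in stromal cells. Nos3, the nitric oxide synthase of endothelium, was in 14 members at 93.8 CPM against 0.191 CPM, Vwf, von Willebrand factor, in 8 at 125 CPM against 5.16 CPM, and Ace in 11 at 93.8 CPM against 7.93 CPM. Fibroblast-class cells held Ace at 145 CPM, above the members. Plat, Edn1 and F8 were at 49.1, 40.2 and 40.2 CPM in the members. Procr and Ptgis had 0 UMIs. Adhesion genes for leukocytes differed in direction: Icam2 (237 CPM in 24 members) and Cd34 (424 CPM in 35) were above stromal cells by 7.69 and 11.12 log2 units, while Icam1 (13.4 against 131 CPM, 3 UMIs in members) and Vcam1 (107 against 1276 CPM) were below. Selp, the P-selectin gene, was above stromal cells too, with 8 UMIs in 3 members (35.7 against 0.286 CPM, log2 ratio 6.96, 3.96 to 11.13). Of the 5 genes with a ratio, 3 were thus 4-fold or more higher than in stromal cells and 2 lower. Sele was in 1 member and Madcam1 in 0.

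MHC class II genes were found in a few members. Cd74, the invariant chain, had 53 UMIs in 8 members (237 CPM) against 5.35 CPM in stromal cells, and H2-Aa, H2-Ab1 and H2-Eb1 were each in 6 members at 44.6, 58 and 40.2 CPM. At least 1 of these 3 chains was found in 10 of 55 members (18.2%, 9.08% to 30.9%), and all 3 in 3. A UMI of at least 1 chain was also found in 14.2% of erythroid cells, at a median of 31315 UMIs against 3503, and in 6.39% of stromal cells, at a median of 4978 UMIs. The erythroid share came mostly from H2-Ab1 (14% of cells, against 0.0471% for H2-Aa and 0.204% for H2-Eb1), and Cd74 was at 703 CPM in cells of no class. Ciita, the class II activator, was in 4 members. Of the class I and interferon list, 7 of 14 genes were 4-fold or more higher than in all other cells, beside 26.8% of all genes. Against stromal cells 1 of 14, Ly6e, was 4-fold or more higher, a share like the 7.92% of all genes. H2-K1 and H2-D1 were at 1040 and 1121 CPM, below the 2558 and 2693 CPM of stromal cells. The leukocyte markers Ptprc, Csf1r, Ctss and Lyz2 had 0 UMIs in the members, which allows up to 26.8 CPM of each, and the part of leukocyte RNA in the class II values was not tested.

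Cxcl12, the chemokine that retains blood stem cells, was the leading niche factor. It was found in 47 of 55 members at 4500 CPM (4116 to 4911), with 4463 CPM in replicate 1 and 4537 CPM in replicate 2. LEPR stromal cells held 22486 CPM, 5-fold more (log2 ratio -2.32, -2.45 to -2.19), fibroblast-class cells 418 CPM and erythroid cells 60 CPM, with a UMI in 42.4% of cells at their greater depth. Per member it ranged from 0 to 16089 CPM around a median of 2022 CPM, and 5 cells held 49.6% of its UMIs. The members were thus above the fibroblast and erythroid classes, and below the stromal cells, for which Cxcl12 was one of the genes they were chosen by. Against all other cells the log2 ratio of Cxcl12 was 2.01, but it turned to -1.41 without erythroid cells and to -0.39 with an equal weight for each cell.

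As a measure of stromal RNA in the same droplets, 7 genes of stromal cells (Lepr, Adipoq, Pdgfra, Pdgfrb, Serpina12, Crym and Foxc1) were counted beside it. The members held 34 UMIs of these genes and 1008 of Cxcl12, or 29647 Cxcl12 UMIs per 1000 marker UMIs (18331 to 51300). The ratio was 4611 (4549 to 4674) in stromal cells and 3066 (2917 to 3224) in erythroid cells, of which the first also rests on genes that chose the class. Without the 7 members that passed another gate, Cxcl12 had 529 UMIs (2990 CPM) beside 3 marker UMIs, a ratio of 176333 with an interval from 40842 to 2462481. Lepr and Adipoq are also genes of the stromal gate, by which 3 of the 7 were dropped. The dropped members of 8755 and 14171 UMIs held 16 and 14 of the 34 marker UMIs, so the rise of the ratio follows in part from the choice. No marker UMI was found in 49 of 55 members, and 41 of these had Cxcl12, at a median of 1877 CPM over the 49. Of the 1941 stromal cells, which Lepr and Adipoq helped to choose, 5 had no marker UMI, at a median of 5894 CPM of Cxcl12. Such cells could enter the class only through Cxcl12 and Ebf3. Their Cxcl12 level therefore follows from the choice and gives no comparison with the members.

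**Figure D4:**
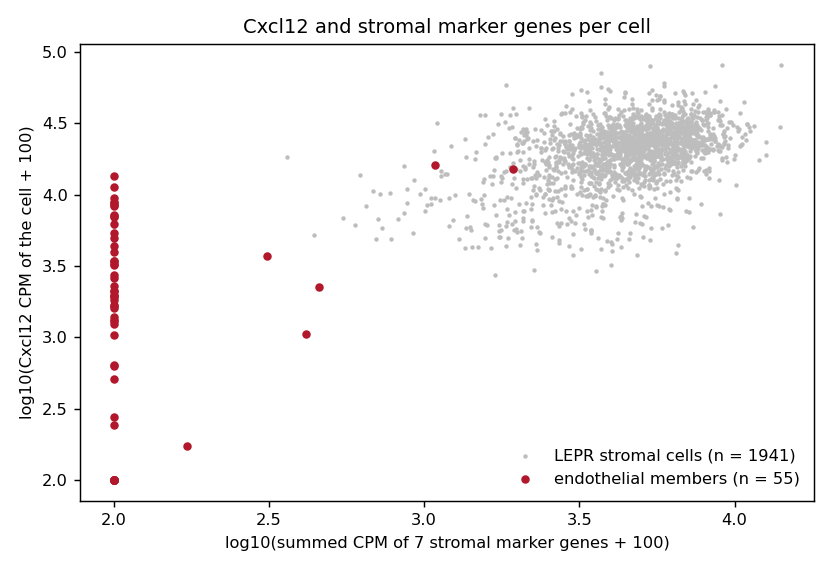
Cxcl12 CPM per cell against the summed CPM of 7 stromal marker genes, both as log10 of the value plus 100, in 55 members and 1941 LEPR stromal cells; each point is a cell. At the left edge, with no marker UMI, lie 49 members and 5 stromal cells.

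Kitl, the ligand of KIT, was found in 29 members at 536 CPM (409 to 689.6), 599 CPM in replicate 1 and 475 CPM in replicate 2, against 1805 CPM in stromal cells. Its ratio was 3529 per 1000 stromal marker UMIs in members and 370.2 in stromal cells. Its log2 ratio to all other cells was 2.58, and -0.85 without erythroid cells. Of the rest of the niche list, Csf1 (71.4 against 574 CPM) and Angpt1 were 4-fold or more lower than in stromal cells, Il7, Ptn and Thpo had 0 UMIs, and no gene of the 7 with a ratio was 4-fold or more higher. Esm1 was the gene whose ratio to the markers was close to that of stromal cells, with 235 (57.6 to 721) and 222 per 1000.

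Because the study concerns senescent cells, inhibitors of the cell cycle, BCL2 genes and secreted factors were counted. Cdkn2a, the gene of p16Ink4a, and Cdkn2b had 0 UMIs in the members, which allows a level of up to 26.8 CPM and up to 5.45% of members with a UMI, while stromal cells held 0.573 and 0.382 CPM. Cdkn1a, the gene of p21, was found in 12 of 55 members (21.8%, 11.8% to 35%) at 121 CPM, 136 CPM in replicate 1 and 106 CPM in replicate 2, against 32.1 CPM in stromal cells (log2 ratio 1.91, 0.99 to 2.71) and 458 CPM in the fibroblast class. In erythroid cells 7.2% had a UMI of it. Cdkn1c was in 14 members at 121 CPM against 161 CPM, and its log2 ratio of 3.29 to all other cells became -0.06 without erythroid cells. No CDK inhibitor was past 4-fold from stromal cells in either direction, among 5 with a ratio.

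Bcl2 had 1 UMI in the members against 92.3 CPM in stromal cells (log2 ratio -4.37, -14.36 to -1.14). Mcl1 was in 26 members at 308 CPM, the same in both replicates, against 100.4 CPM, and Bcl2l1, the gene of BCL-XL, in 8 at 80.4 CPM against 20.6 CPM, short of 4-fold. Of 9 BCL2-family genes with a ratio, Bcl2 was the only one past 4-fold from stromal cells. Of the secreted factors, 7 of 12 had 0 UMIs in the members (Il1a, Il1b, Tnf, Cxcl1, Ccl2, Mmp3 and Mmp2). Igfbp7 was in 43 members at 1402 CPM against 1377 CPM in stromal cells (log2 ratio 0.03, -0.21 to 0.25), Igfbp4 was 3.10 log2 units lower, and no gene of the 5 with a ratio was 4-fold or more higher. Against all other cells 4 of 5 were, Il6 among them, with 3 UMIs in 2 members (13.4 against 0.254 CPM, log2 ratio 5.72, 1.86 to 7.94). Il6 was at 0.191 CPM in stromal cells and got no ratio to them, since both counts were within the limit of 3, while Ccl2 was among the 5 with a ratio there.

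**Figure D5:**
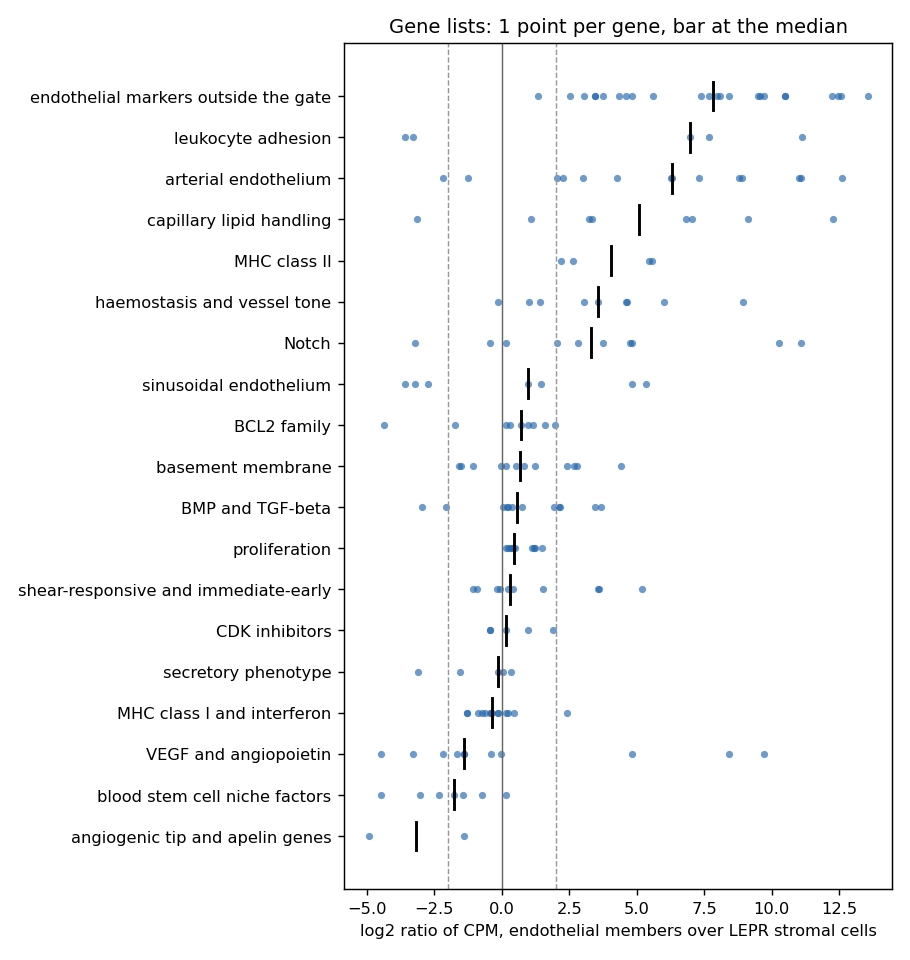
Log2 ratio of CPM, members over LEPR stromal cells, for the genes of 19 lists; each point is a gene, the bar is the median of the list, and dashed lines mark 4-fold in each direction. Endothelial, arterial and capillary lipid genes lie mostly to the right, niche factors mostly to the left, and leukocyte adhesion genes on both sides.

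RNA of other cells was present in the members. The 10 erythroid markers summed to 871 CPM in members, 9599 CPM in erythroid cells and 535 CPM in stromal cells, the 4 globin genes to 3121, 25492 and 1507 CPM, and the plasma cell list to 496 and 528 CPM in members and stromal cells. The 10 LEPR stromal genes, Cxcl12 and Kitl included, summed to 5304 CPM against 30237 CPM in their own class. Megakaryocyte, fibroblast, and pericyte and smooth muscle lists summed to 71.4, 156 and 93.8 CPM, the first 2 against 47665 and 43244 CPM in their classes, with 4, 3 and 3 of their 8 genes at 0. Of 11 leukocyte genes 9 were at 0, with 3 UMIs in all, and the 5 lymphatic genes, Prox1 included, were at 0. Hbb-bs was 1629 per 1000 erythroid marker UMIs in members, 1399 in stromal and 1310 in erythroid cells, so the pooled counts of each class stood in a similar ratio. The members were uneven in it: those of 13930 and 10291 UMIs held 6246 and 7288 CPM of Hbb-bs, against 1272 CPM over all members. The pooled ratio of the members therefore rests largely on these large cells.

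The 7 members that also passed another gate were 3 with LEPR stromal, 1 with fibroblast and 3 with erythroid genes, and Scrublet called 1 of the 55 a doublet. That cell had 14171 UMIs, the most of all members, with 228 Cxcl12, 28 Mki67, 18 erythroid marker and 14 stromal marker UMIs. A second large member of 8755 UMIs had 131 Cxcl12 and 16 stromal marker UMIs. Of the proliferation genes, 9 of 10 were 4-fold or more lower than in all other cells and none was past 4-fold from stromal cells. Mki67 had 56 UMIs in 15 members (245 CPM in replicate 1 and 255 CPM in replicate 2), 28 of them in the doublet-called cell. Per 1000 erythroid marker UMIs it was 320.0 (201 to 495) in all members, 178 (93.2 to 317) without that cell, 234 in stromal and 142 in erythroid cells. Whether any member was cycling was not tested.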

How the data were processed

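Cells of the bone and marrow of 3 pooled mice were measured by 10x Chromium 3′ single-cell RNA-seq in 2 samples labelled replicates 1 and 2. The authors deposited 1 matrix of UMI counts for each, as Cell Ranger gives them for the barcodes it calls cells, without any scaling. Its header names software version 3.0.2, and the submitters' processing notes name the build mm10, R 4.0.3 and Seurat 4.0. Here each barcode's replicate counts were added, after 10928 of 11056 barcodes were found in both with log10 UMI totals at a Pearson r of 0.999858 across barcodes (not independent replicates). The squared differences between replicates came to 0.559 of the summed counts, less than the 1 of independent sampling, so the replicates were counted as 1 sample. Barcodes with at least 200 genes and at most 20% mitochondrial UMIs were kept.

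The members and gene lists were chosen with earlier results of these data known. The other classes needed at least 2 genes of a short list and a sum of at least 5000 CPM (LEPR stromal) or 1000 CPM (fibroblast, megakaryocyte, erythroid) in cells that were no members. Cells in several classes (101) or in none (925) were kept apart. A group's level is the CPM of its summed UMIs, with an exact Poisson interval (95%) on the mean of the replicates. Ratios have exact conditional binomial intervals and shares of cells exact Clopper-Pearson intervals, where a UMI in 1 of the replicates was enough. Genes with at least 20 UMIs over all kept cells were compared, the gate genes excepted, and called at 4-fold or more. A gene at 0 UMIs was given its limit of 3 counts, and a gene at 0 in the members got no ratio where that limit pointed the wrong way. Named were genes of the lists, the 25 genes with the highest ratio to all other cells and the 10 to stromal cells (at least 100 UMIs and 25% of members), and the 10 with the lowest ratio to stromal cells (at least 100 CPM there), of which 1 is not reported here. C1qtnf9, Car4, Timp4, Aqp1, Lrg1, Vim and S100a6 were named after their values were seen. Doublets were scored with Scrublet (scanpy 1.11.5) in each replicate at an expected rate of 8% and marked but not removed. Scrublet called 231 of the 9573 cells. Python 3.11.15, numpy 2.4.6, pandas 2.3.3 and scipy 1.17.1 were used. The ratio function was tested on simulated counts. Gene IDs were matched to GENCODE M21 (GRCm38) for 32158 of 32285 features. Promoters came from RefSeq. With 1 biological sample there are no p-values and no standard errors. PCR and droplet sampling make intervals cover counting error only. Alternatives were a mitochondrial limit of 10%, at least 500 genes, removal of doublets, each replicate alone, 3 gate genes, a gate of 2000 CPM, removal of members that pass another gate, an equal weight for each cell (the mean of CPM over cells), a minimum of 100 UMIs, other cells without erythroid cells, and thinning to 2000 UMIs. Calls by the interval bound and thinning to 1000 UMIs were added after seeing the data.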

Additional observations from a re-analysis of the deposited data

How the results depend on the processing

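All values come from 1 pooled sample of aged mice with no young or treated group. The 55 cells with a median of 3503 UMIs limit the depth: most single genes are missed in most cells. By the limit of 3 counts, a gene at 0 can be as high as 26.8 CPM. No paired analysis was possible because there is 1 group, and both replicates hold the same cells. The number of members was 52 to 55 with each replicate alone. Of the values that answer a comparison, 95 kept within their limits under the alternatives and 19 moved. The share of members with at least 2 arterial genes, 90.9%, was 97.8% at a mitochondrial limit of 10%, 100% with cells thinned to 2000 UMIs, and 87.3% to 88.5% with each replicate alone. The share with at least 2 sinusoidal genes, 34.5%, was 21.2% to 21.8% with each replicate alone and 11.4% with cells thinned to 1000 UMIs, which hold fewer UMIs by construction. The summed LEPR stromal list, 5304 CPM, was 5786 at the mitochondrial limit of 10%, 4451 without called doublets, 3933 with a gate of 2000 CPM, 3498 without members that pass another gate, and 4747 to 5612 with each replicate alone. The erythroid list was 741 to 953 CPM with each replicate alone.

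Against all other cells, 2826 genes were called higher and 637 lower. These counts were 1721 and 986 with an equal weight for each cell, 1065 and 35 with the interval bound past 4-fold, and 2552 to 2733 and 519 to 522 with each replicate alone. Without erythroid cells 799 were higher. Of the listed genes, 115 higher became 72 without erythroid cells, and 9 lower became 1 by the interval bound, while each replicate alone gave 107 to 109 and 9 to 9. Against LEPR stromal cells, 834 higher and 780 lower became 384 and 126 by the interval bound, and 818 to 853 and 538 to 567 with each replicate alone. Directions turned for 3 genes against all other cells: Cxcl12 from 2.01 to -0.39 with an equal weight for each cell and -1.41 without erythroid cells, Kitl from 2.58 to -0.85 and Cdkn1c from 3.29 to -0.06 without erythroid cells. The cause of these changes was not tested, beyond fewer UMIs or a stricter rule where the alternative itself sets them.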

Other observations

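Genes outside the arterial, sinusoidal and capillary lists were also seen in the members. Vim and S100a6, genes of the cytoskeleton and of calcium binding, were found in 43 and 45 of 55 members and were 2.29 and 2.55 log2 units above LEPR stromal cells. Mcam, the adhesion protein CD146, was in 19 members and Nes, the intermediate filament nestin, in 15, at 8.74 and 6.98 log2 units above stromal cells. Btnl9 and Pdgfb, the ligand that draws pericytes to vessels, were in 18 and 26 members, at 11.30 and 8.49 log2 units. Mgp, the matrix Gla protein, was in 12 members and at a log2 ratio of -4.22 to stromal cells. These genes were named after their values were seen.

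Of the 5 members with fewer than 2 arterial genes, the deepest had 3136 UMIs, under the median of 3503, and that cell carried most of the Stab2 UMIs. In 4 of the 5, 11.4% to 19.2% of UMIs were mitochondrial, beside a median of 3.24% over all members. The member with the fewest endothelial markers had 1007 UMIs, the fewest of all members, and 2 of the 24 markers.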
